A study of Mus musculus with 36 samples.

Results

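The genes of cholesterol biosynthesis and of the SREBP pathway that controls it were described in cultured mouse hepatocytes in which glucokinase (GK) and its regulatory protein (GKRP) were overexpressed. The 28 members were chosen by name as enzymes of the mevalonate and sterol pathway, their electron donor, a sterol carrier and the proteins that sense sterols and activate SREBP, out of 52230 genes with a transcript in the files. All 28 passed the filter on low counts and were among the 12177 genes tested.

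Cholesterol is made from acetyl-CoA by way of HMG-CoA, mevalonate, farnesyl diphosphate, squalene and lanosterol, and the liver is a main site of this synthesis. The SREBP transcription factors are held in the endoplasmic reticulum by the escort protein SCAP and the INSIG retention proteins when sterols are plentiful, and are carried to the Golgi and released by proteases when sterols run low. SREBP2 is best known for driving the sterol pathway and SREBP1 for driving fatty acid synthesis, the latter also in response to insulin, and Insig1 is itself a known SREBP target.

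Hepatocytes were isolated from 3 adult female mice of the line GCKR-P446L-EMI-B6N, described by the submitters as deficient in GKRP. The labels give mice 1 and 2 the genotype Gckr-446L and mouse 3 the genotype Gckr-446P/L, whereas the study's methods describe donors homozygous for the leucine allele, so the genotype of mouse 3 is uncertain and the genotype, the animal and the cell preparation cannot be told apart. Each mouse gave cells for 10 conditions. The untreated cells received no vector, and the adenoviral vectors were for human GKRP-446P (hP), human GKRP-446L (hL), mouse GKRP-446P (mP), mouse GKRP-446L (mL), rat GK (GK), and GK with each of the 4 GKRP vectors (GK+hP, GK+hL, GK+mP, GK+mL). No condition with an empty vector was included. The GKRP protein and the adenovirus therefore cannot be told apart where a GKRP vector is compared with untreated cells. The same holds for GK and its adenovirus where GK is compared with untreated cells. Cells with GK and GKRP received a vector more than cells with GK alone or GKRP alone. In those comparisons the added protein and the added vector cannot be told apart either. All cells were kept with 10 nM insulin and 10 nM dexamethasone, cultured for 24 h at 5 mM glucose and then held for 4 h at 25 mM glucose before RNA extraction. Untreated cells and GK had 2 cultures per mouse, which were summed since the mouse was the replicate, and the other conditions had 1 culture per mouse, so every condition had n = 3 mice.

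The 36 libraries held between 3924674 and 10046158 reads (median 5980276). Albumin stood at 62300 to 122000 CPM (the reads of a gene scaled to a common library total) in the 30 samples, and all 8 hepatocyte markers were detected in every sample. Markers of other liver cells were lower but present, with summed levels of 212 to 338 CPM for 9 macrophage and Kupffer cell markers. Most of that sum was Cd68, at 119 to 275 CPM. Acta2, Des and Krt7 were at 0 in 11, 8 and 9 of 30 samples. Gckr read 8930 to 23300 CPM in all cultures with a mouse GKRP vector and 37.1 to 118 CPM in the others, apart from a GK culture of mouse 3 at 1460 CPM. The human GKRP vectors are not part of the mouse reference.

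The promoters shown are those that hold the sterol regulatory element of the classical type and those of the pair of members, Insig1 and Sc5d, whose levels followed each other most closely in these samples. Promoter windows of 300 bases, from 250 before to 50 after a gene's start, were taken from RefSeq (GRCm38.p6), which held 32 windows for 24 of the members. Fdps, Fdft1, Sqle and Stard4 had no entry. Letters of the sterol regulatory element, TCACNCCA on either strand, were found in 3 member windows (9.38%), those of Hmgcs1, Msmo1 and Srebf2, and in 4.36% of all 32851 windows. The box CCAAT, known as a site of the factor NF-Y that works together with SREBP, was found on either strand in 62.5% of member windows and in 37.4% of all windows. The palindrome CACGTG, an E-box, was found in 18.8% of member windows, which belonged to Dhcr7, Hsd17b7, Insig1, Sc5d and Scap, and in 7.15% of all windows. None of the matches overlapped another in the promoters shown. A match of letters is a description of the sequence and not a binding site. The 250 bases before the RefSeq start are printed with their position in GRCm39, where each window matched exactly once, and capitals mark the 3 motifs on either strand (CCAAT reads ATTGG on the opposite strand).
Hmgcs1, chr13:120151637-120151886, plus strand: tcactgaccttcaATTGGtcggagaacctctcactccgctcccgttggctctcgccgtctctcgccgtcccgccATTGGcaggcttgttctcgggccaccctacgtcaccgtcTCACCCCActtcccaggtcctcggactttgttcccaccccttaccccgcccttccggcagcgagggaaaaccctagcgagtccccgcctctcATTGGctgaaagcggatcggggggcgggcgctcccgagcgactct
Msmo1, chr8:65186613-65186862, minus strand: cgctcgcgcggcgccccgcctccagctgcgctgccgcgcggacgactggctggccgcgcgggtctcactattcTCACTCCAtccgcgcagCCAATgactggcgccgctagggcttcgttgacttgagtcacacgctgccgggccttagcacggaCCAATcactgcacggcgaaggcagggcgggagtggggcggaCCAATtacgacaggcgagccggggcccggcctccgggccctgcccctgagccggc
Srebf2, chr15:82031220-82031469, plus strand: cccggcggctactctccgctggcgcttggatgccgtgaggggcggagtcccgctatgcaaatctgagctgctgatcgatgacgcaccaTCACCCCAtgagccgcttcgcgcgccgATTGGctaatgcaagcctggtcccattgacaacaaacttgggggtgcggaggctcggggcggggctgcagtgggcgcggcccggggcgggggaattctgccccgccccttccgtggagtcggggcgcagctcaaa
Insig1, chr5:28276160-28276409, plus strand: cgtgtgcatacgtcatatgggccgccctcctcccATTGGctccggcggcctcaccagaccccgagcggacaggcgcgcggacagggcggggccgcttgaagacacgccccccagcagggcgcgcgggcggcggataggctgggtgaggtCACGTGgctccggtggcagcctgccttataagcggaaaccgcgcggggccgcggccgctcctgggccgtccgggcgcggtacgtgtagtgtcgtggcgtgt
Sc5d, chr9:42175597-42175846, minus strand: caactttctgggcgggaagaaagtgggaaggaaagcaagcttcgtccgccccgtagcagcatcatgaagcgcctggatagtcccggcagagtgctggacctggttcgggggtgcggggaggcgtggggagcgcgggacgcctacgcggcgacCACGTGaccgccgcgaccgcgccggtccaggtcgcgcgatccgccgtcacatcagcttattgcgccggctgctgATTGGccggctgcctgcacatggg
In Insig1 and Sc5d the E-box began 101 and 98 bases before the RefSeq start. In Hmgcs1, Msmo1 and Srebf2 the sterol regulatory element began 137, 177 and 162 bases before that start. These distances depend on the start used. By the annotated gene coordinates Insig1 (28276315), Sc5d (42175605), Srebf2 (82031382) and Msmo1 (65186830) begin inside the printed bases. The Msmo1 element then lies within the annotated gene. None of the 5 windows held both the sterol regulatory element and the E-box.

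Levels were compared between genes as TPM, a scaled level per transcript length. Por, the reductase that passes electrons to cytochrome P450 enzymes including Cyp51, was the most abundant member with a median of 627 TPM over 30 samples (range 154 to 1870). Insig2, a retention protein, followed with a median gene TPM of 290, then Fdps, which makes farnesyl diphosphate, at 259 and Msmo1, a methylsterol oxidase, at 157. The least abundant were Mvd at 3.25 TPM and Ggps1 at 6.27 TPM, which remove the carboxyl group from mevalonate diphosphate and make geranylgeranyl diphosphate for protein prenylation. The interquartile ranges overlapped between 23 of the 27 neighbours in this order, so most of the order is not resolved. The exceptions were the steps from Por to Insig2, from Msmo1 to Sc5d, from Sc5d to Cyp51 and from Ggps1 to Mvd. Gene TPM sums all transcripts, and short ones weigh heavily in it. By the TPM of the transcript with most reads, Por stayed first at 263, while Insig2 came 10th with a median of 28.8 and 7 of the 28 members moved by more than 5 places. The retention protein Insig1 stood at 49.4 TPM by gene and 42.7 by its leading transcript, which held 97.5% of its reads.

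Most members differed more between the hepatocyte preparations than between the vectors. The mean log2 CPM of a member differed between the 3 mice by a median of 0.5 (range 0.16 to 1.15), and its mean over mice, after centring within each mouse, differed between the 10 conditions by a median of 0.33 (range 0.13 to 0.84). The range over mice was the wider of these in 18 of the 28 members (64.3%), beside 33.2% of all genes tested and 36.2% of the 8764 genes at or above the level of the lowest member. A mean over 10 conditions is less noisy than a mean over 3 mice, which applies to all genes alike. The members were lowest in mouse 1 in 22 of 28 cases, whereas 41.7% of all genes were lowest in that mouse.

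**Figure D1:**
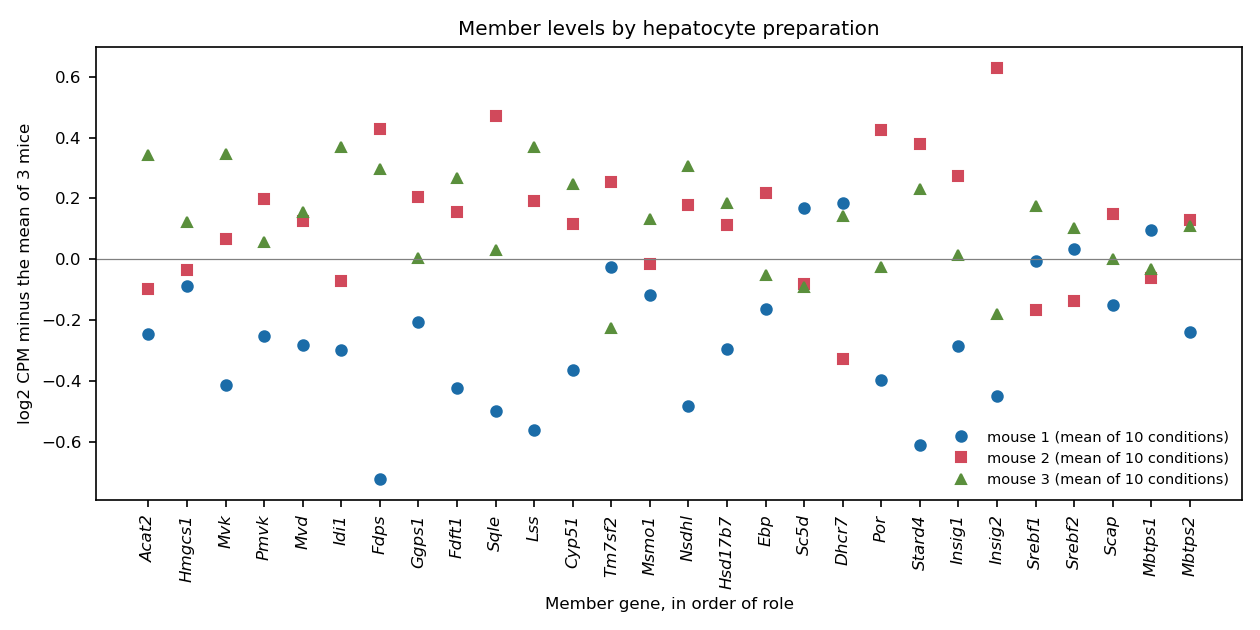
Mean log2 CPM of each member in the cells of mouse 1 (circles), mouse 2 (squares) and mouse 3 (triangles), each the mean of 10 conditions, minus the mean of the 3 mice. Mouse 1 is the lowest for 22 of the 28 members, and Sc5d and Dhcr7, near the end of the sterol pathway, are highest in mouse 1.

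Fdps showed the widest gap, with 90.8 ± 18.9 CPM (SD over 10 conditions) in mouse 1, 199 ± 15.3 in mouse 2 and 183 ± 12.4 in mouse 3, a 2.22-fold range of the log means. Insig2 had 119 ± 8.89, 253 ± 16.1 and 145 ± 17.4 CPM in mice 1, 2 and 3. In Fdps the cells of mouse 1 stood apart from the other preparations, and in Insig2 those of mouse 2 did. Stard4, a soluble sterol carrier, and Sqle and Lss, which turn squalene into its epoxide and then into lanosterol, were 1.99-, 1.96- and 1.9-fold apart. Sc5d, a sterol desaturase, went the other way, with 194 ± 26.9 CPM in mouse 1 and 162 ± 11.8 and 162 ± 13.3 CPM in mice 2 and 3. Marker levels moved with the preparation too. The summed hepatocyte markers were 84700 to 115000 CPM in mouse 1, 127000 to 150000 in mouse 2 and 105000 to 125000 in mouse 3. The 4 cholangiocyte markers summed to 130 to 229 CPM in mouse 1 and at most 17.7 CPM in the others, nearly all of it Spp1. The 7 stellate and fibroblast markers summed to 9.19 to 22.3, 111 to 145 and 32.5 to 49.8 CPM in mice 1, 2 and 3. This sum followed a single gene, Reln, at 5.36 to 141 CPM over the 30 samples. No other marker of that list exceeded the 3.79 CPM of Col3a1. The part of these marker differences in the levels of the members was not tested. In such bulk samples fewer hepatocytes and less RNA per hepatocyte cannot be told apart.

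Across the 10 conditions the pathway showed no common movement. The mean of the 19 enzymes from Acat2 to Dhcr7, centred within each mouse, lay between -0.04 and 0.04 log2 units in every condition. Its SD over 3 mice was 0.02 to 0.09, so the conditions differed little beside that spread. The lowest single sample was GK in mouse 1 at -0.13. The correlation of centred levels between pairs of members over the 30 samples had a median of 0.02 over 378 pairs, and of 0.05 over the 171 pairs of enzymes. These pairs share libraries, so the values describe the samples and carry no test.

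**Figure D2:**
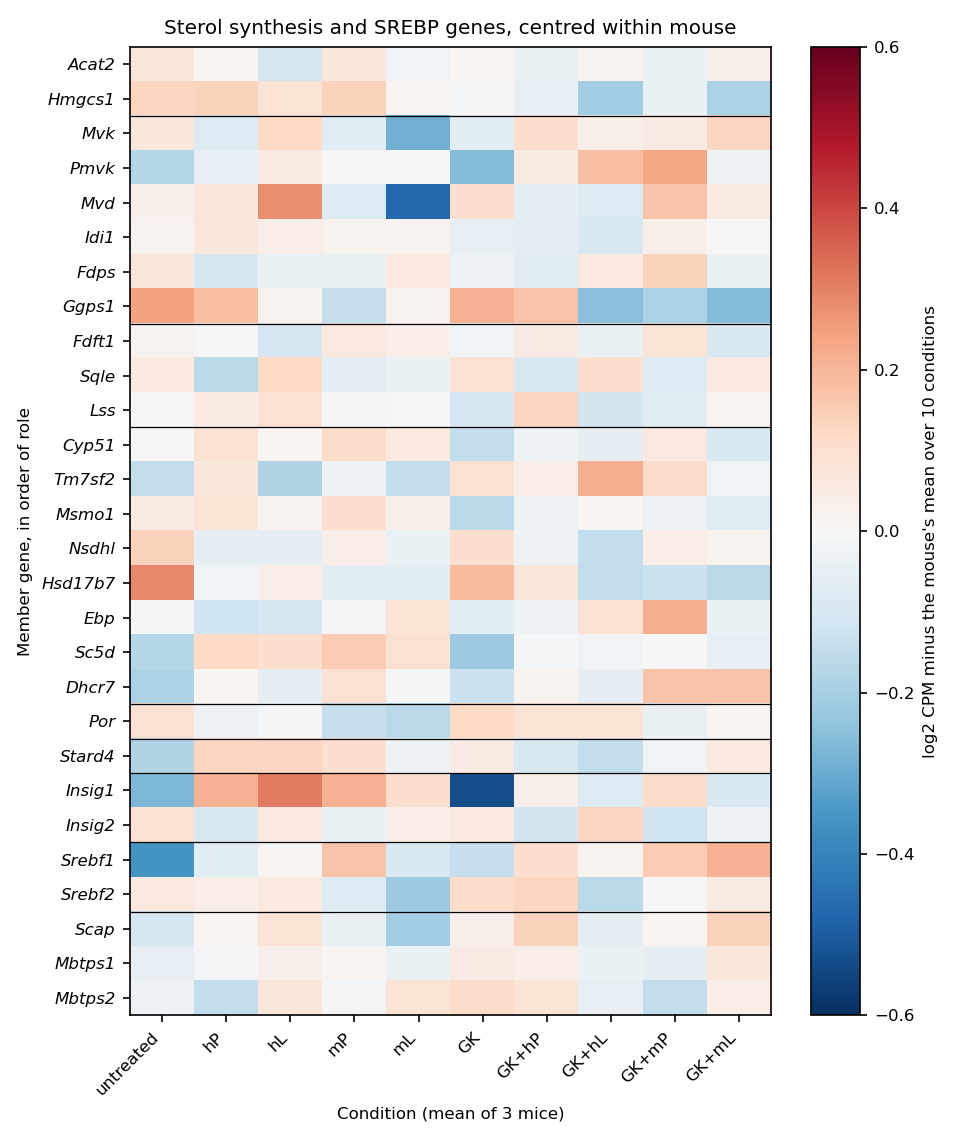
Mean centred log2 CPM (n = 3 mice) of the 28 members, in rows by role from HMG-CoA synthesis to the proteases, in the 10 conditions. Insig1 is the member with the widest range, from -0.53 in GK to 0.31 in hL, and Srebf1 is lowest in untreated cells at -0.36, while most enzymes stay near 0.

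Hmgcs1, the enzyme that makes HMG-CoA, ranged from 0.14 in hP and mP to -0.21 in GK+hL on this scale. Mvd had the widest range of the enzymes, from 0.28 in hL to -0.47 in mL, at a low level of 3.26 to 8.17 CPM in single samples. Cyp51, the lanosterol demethylase, ranged only from -0.15 in GK to 0.11 in mP, and Idi1, the isomerase that makes dimethylallyl diphosphate, from -0.09 to 0.07. Mbtps1, a Golgi protease that cuts SREBP, was the flattest member with a range of 0.13.
Pmvk, Ggps1 and Hsd17b7 had ranges of 0.49, 0.5 and 0.45, beside a median of 0.47 over all genes and of 0.39 over genes at or above the level of the lowest member. Acat2, the thiolase that joins acetyl-CoA units, ranged from -0.1 in hL to 0.07 in untreated cells, and Fdft1, the squalene synthase, from -0.1 in hL to 0.08 in GK+mP. Lss ranged from -0.11 in GK+hL to 0.13 in GK+hP, and Ebp, a sterol isomerase, from -0.12 in hP to 0.22 in GK+mP. Tm7sf2, a sterol reductase of the lanosterol branch, went from -0.18 in hL to 0.22 in GK+hL, at 20.6 to 41.2 CPM in single samples. Mvk, another low member at 4.71 to 13.8 CPM, went from -0.29 in mL to 0.13 in GK+mL. Mvd, Mvk, Por, Srebf2 and Scap were lowest in mL, and Lss, Hmgcs1, Idi1 and Nsdhl in GK+hL. Fdps reached 141 CPM in GK+mP of mouse 1 against 76.4 to 98.6 CPM in the other samples of that mouse, so its highest condition mean, 0.14 in GK+mP, rests on that culture.

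To ask whether excess GK changed the pathway, GK alone was compared with the 5 groups at endogenous GK (untreated, hP, hL, mP and mL), the contrast used in the study. These 5 were fitted as a merged group, so differences among them counted as residual spread. By edgeR's quasi-likelihood test without a term for the mouse, 0 of 28 members were called, that is, reached an adjusted p below 0.05 with at least 1.3-fold or at most 0.7-fold change, beside 0.427% of all genes. DESeq2 without the mouse called 0 as well. In the edgeR test 3 members (Insig1, Sc5d and Msmo1, all lower) had an unadjusted p under 0.05. They were 10.7% of the members, beside 7.8% of all genes. The median log2 fold change was 0.014 over the members and -0.011 over all genes, and 15 members were higher and 13 lower. When the mouse was added to the model as a block, Insig1 alone was called, lowered by 0.65 on the log2 scale (SE 0.13, 95% interval -0.91 to -0.39, edgeR adjusted p = 0.0036), beside 1.99% of all genes. Without the mouse its log2 fold change was -0.64 (SE 0.2, adjusted p = 0.225). The call with the mouse in the model was lost without mouse 2 (-0.69, edgeR adjusted p = 0.107) and without mouse 3 (-0.67, edgeR adjusted p = 0.0988), and held without mouse 1 (-0.58, edgeR adjusted p = 0.0462).

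**Figure D3:**
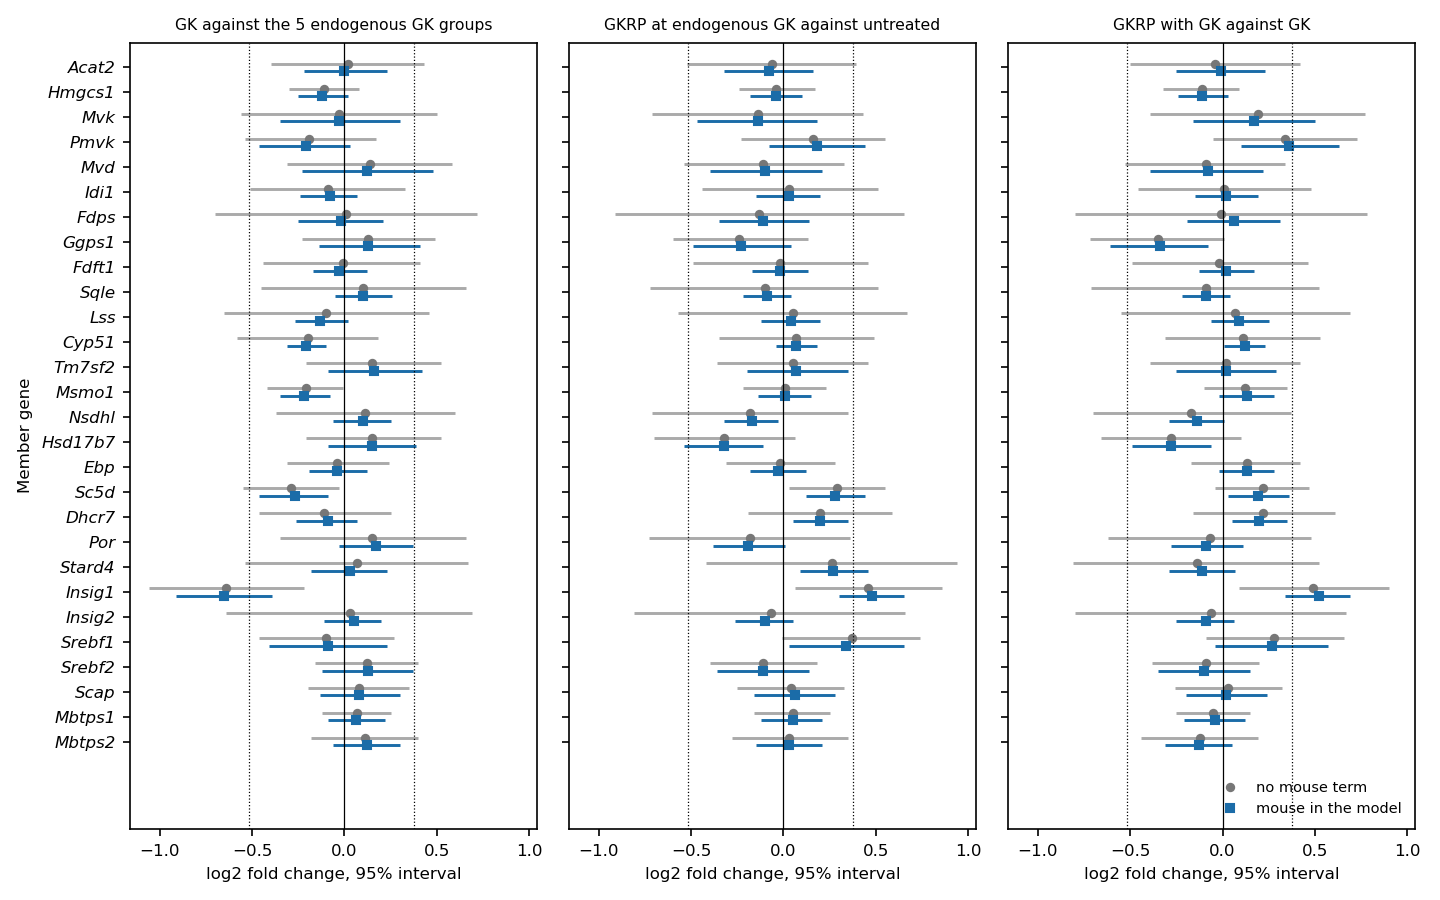
Log2 fold change of each member with its 95% interval in 3 comparisons, without a term for the mouse (grey circles) and with it (blue squares). Dotted lines mark 1.3-fold and 0.7-fold. The intervals shorten with the mouse in the model, most members stay between the dotted lines, and Insig1 is the member whose value lies past a dotted line in all 3 panels.

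Insig1 read 69.8, 124 and 104 CPM in GK (mice 1, 2 and 3) against a lowest, median and highest value of 84.4, 148 and 214 CPM in the 15 samples at endogenous GK. The CPM values of the groups overlapped. Within each mouse GK was below the mean of the endogenous groups, with differences of -0.79, -0.56 and -0.58 log2 units in mice 1, 2 and 3. After centring, the GK samples lay between -0.71 and -0.43 and the endogenous samples between -0.44 and 0.37, with only the untreated sample of mouse 1 reaching into the GK range. The endogenous groups include the 4 with GKRP vectors. Against untreated cells alone the log2 fold change of Insig1 was -0.26 (95% interval -0.75 to 0.24 without the mouse, and -0.47 to -0.05 with it, adjusted p = 0.727), and it was lower in 3 of 3 mice.
Next to Insig1, Cyp51 was lower in GK by 0.21 with the mouse in the model (log2 fold change -0.21, SE 0.05, adjusted p = 0.0335), a 0.867-fold change that did not meet the fold threshold. Msmo1, which acts on the sterol methyl groups after Cyp51, had a log2 fold change of -0.22 (SE 0.07, adjusted p = 0.0851) and Sc5d of -0.27 (SE 0.09, adjusted p = 0.106) in that model, which edgeR did not call. Cyp51, Msmo1 and Sc5d were lower in GK in all 3 mice, as were Hmgcs1 and Lss. Of all members, 15 of 28 (53.6%) moved the same way in 3 of 3 mice, beside 48% of all genes. The intervals of 23 members with the mouse in the model lay wholly between 0.7-fold and 1.3-fold, beside 51% of all genes, and Mvd, Ggps1, Tm7sf2, Hsd17b7 and Insig1 were the exceptions.
Compared with untreated cells alone, GK gave 0 called members in either model by edgeR, beside 0.00821% of all genes without the mouse and 0.361% with it. In the edgeR test 0 members had an unadjusted p under 0.05 without the mouse, beside 2.04% of all genes, and DESeq2 called 0 with and without it. The members' log2 fold changes ran from -0.26 (Insig1) to 0.28 (Stard4), the latter with an SE of 0.41 without the mouse and 0.11 with it.

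To ask whether GKRP changed the pathway at endogenous GK, the mean of the 4 GKRP vectors was compared with untreated cells. No member was called by edgeR without the mouse (0 of 28, beside 1.89% of all genes), and DESeq2 without the mouse called 0. Insig1 and Sc5d, both higher, had an unadjusted p under 0.05 in the edgeR test. They were 7.14% of the members, beside 9.36% of all genes. The median log2 fold change was -0.004, and 14 members were higher and 14 lower. With the mouse in the model Insig1 alone was raised, by 0.48 on the log2 scale (SE 0.08, 95% interval 0.3 to 0.65, edgeR adjusted p = 0.000779), beside 4.16% of all genes called. The value without the mouse was 0.46 (SE 0.2, adjusted p = 0.389).
Insig1 read 84.4, 148 and 124 CPM in untreated cells (mice 1, 2 and 3), 126, 201 and 167 in hP, 134, 214 and 182 in hL, 133, 183 and 174 in mP, and 136, 177 and 138 in mL. Each vector was above untreated in each mouse. After centring, the 12 samples with GKRP lay between -0.02 and 0.37 and the 3 untreated samples between -0.44 and -0.18, with no overlap. The mean difference was 0.64, 0.38 and 0.41 log2 units in mice 1, 2 and 3.

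**Figure D4:**
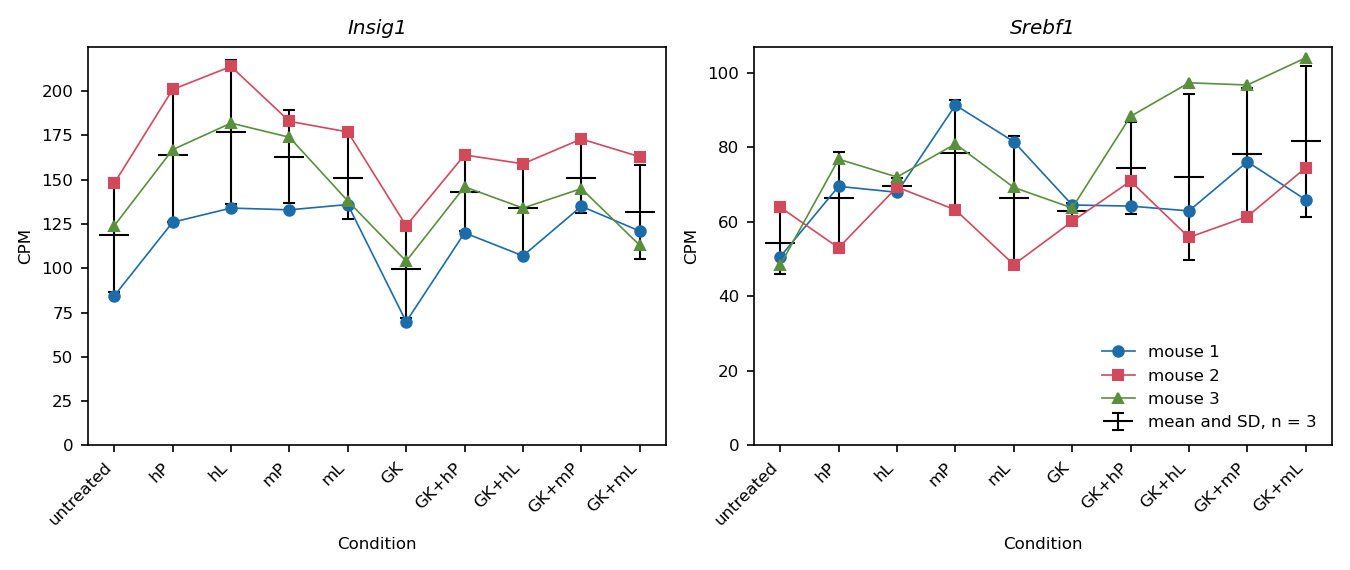
CPM of Insig1 and Srebf1 in every sample, joined by mouse, with the mean and SD of 3 mice in black. Insig1 is lowest in GK in each mouse, with a mean of 99.3 CPM. Untreated cells, with a mean of 119 CPM, come next in mice 1 and 2, and in mouse 3 GK+mL lies below them. The lines of Srebf1 cross.

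Taken singly with the mouse in the model, Insig1 was raised by hP (log2 fold change 0.48, adjusted p = 0.00989), hL (0.58, adjusted p = 0.00159) and mP (0.48, adjusted p = 0.00718), each with an SE of 0.1. For mL the value was 0.37 (SE 0.1, adjusted p = 0.0461), just under the fold threshold. The shares of all genes raised in these fits were 1.95%, 2.51%, 2.41% and 2.49% for hP, hL, mP and mL. Without the mouse the adjusted p of Insig1 was between 0.53 and 1 for the 4 vectors. The vectors share the untreated samples.
Sc5d read 156, 152 and 150 CPM in untreated cells and 164 to 219 CPM in the 12 samples with GKRP, so it was higher in each of them. Its log2 fold change with the mouse in the model was 0.28 (SE 0.08, adjusted p = 0.0329), which is 1.21-fold and under the fold threshold. A further 5 members had an unadjusted p under 0.05 in that model and were not called: Dhcr7, a late sterol reductase, at 0.2 (adjusted p = 0.111), Stard4 at 0.27 (0.0716), Srebf1 at 0.34 (0.212), Nsdhl at -0.17 (0.173) and Hsd17b7 at -0.32 (0.0676), the last pair both acting in the removal of sterol methyl groups. Of all genes, 18.5% had an unadjusted p under 0.05 in that model.
For Hsd17b7 the untreated cells read 36.5, 44.9 and 47.8 CPM and the 12 GKRP samples 25.7 to 42 CPM. Within each mouse every GKRP sample was below the untreated one. The intervals of 22 members lay between 0.7-fold and 1.3-fold with the mouse in the model, beside 49.6% of all genes. In the same comparison 10 of 12 genes of the S-phase list, which marks DNA replication, among them Mcm6, Mcm3, Mcm4, Chek1, Ccne2, Mcm2, Mcm5 and Pcna, rose by edgeR without the mouse (median of the list 1.81 on the log2 scale, against -0.001 for all genes), while 0 of 10 interferon genes were called by edgeR in either model. The S-phase list also moved in the other comparisons in which Insig1 was called. With GKRP in the presence of GK 10 of 12 rose without the mouse (median 1.47), and in GK against the endogenous groups 0 of 12 were called without the mouse and 3 (Mcm5, Mcm4 and Mcm2) fell with it (median -1.22 without it). The part of these S-phase differences in the Insig1 values was not tested.

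The same question was asked in cells that overexpressed GK, with the mean of the 4 combinations set against GK alone. Without the mouse edgeR called 0 of 28 members, beside 1.61% of all genes, and DESeq2 called 0. Insig1 alone had an unadjusted p under 0.05 in the edgeR test, which is 3.57% of the members, beside 9.98% of all genes. With the mouse in the model Insig1 was raised by 0.52 on the log2 scale (SE 0.08, 95% interval 0.34 to 0.69, adjusted p = 0.000308), beside 4.34% of all genes called, and by 0.49 (SE 0.2, adjusted p = 0.32) without it. GK samples are used both here and in the comparison of GK with the endogenous groups, so the directions in these comparisons are not independent.
Insig1 read 120, 164 and 146 CPM in GK+hP, 107, 159 and 134 in GK+hL, 135, 173 and 145 in GK+mP and 121, 163 and 113 in GK+mL (mice 1, 2 and 3). Every one of these 12 values was above GK in the same mouse. After centring they lay between -0.31 and 0.24, without overlap with GK at -0.71 to -0.43. On the scale of gene TPM the order differed, with centred means of -0.45 in untreated cells, -0.2 in GK, 0.15 in GK+hP, 0 in GK+hL, -0.24 in GK+mP and -0.61 in GK+mL, so the difference from GK turned its direction for the mouse GKRP vectors and GK was not below untreated cells. Vector by vector, with the mouse in the model, the log2 fold changes were 0.55 for hP (adjusted p = 0.00204), 0.44 for hL (0.0176), 0.63 for mP (0.000359) and 0.44 for mL (0.0208), each with an SE of 0.1 and each called as raised. The shares of all genes raised were 2%, 1.63%, 3.54% and 1.79%. Without the mouse the adjusted p was between 0.296 and 0.937.
Among the enzymes, Pmvk, the phosphomevalonate kinase, had a log2 fold change of 0.36 (SE 0.13, adjusted p = 0.0845) and Ggps1 of -0.34 (SE 0.13, adjusted p = 0.115) with the mouse in the model, and neither was called. Pmvk read 14.9, 28.3 and 24.2 CPM in GK and 19.2 to 34.4 CPM in the combinations. Ggps1 read 8.07, 11.1 and 9.91 CPM in GK, and 5.36 to 10.5 CPM in the combinations. Both are low, and their groups overlapped. Hsd17b7 was again lower, at -0.28 (SE 0.1, adjusted p = 0.122), and Dhcr7 and Sc5d higher, at 0.2 (adjusted p = 0.0963) and 0.19 (adjusted p = 0.152), without a call by edgeR. The intervals of 23 members lay between 0.7-fold and 1.3-fold in that model, beside 48.4% of all genes.

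The difference made by GK in the presence of GKRP was taken as the 4 combinations against the 4 GKRP vectors. Without the mouse edgeR called 0 of 28 members, beside 0.0164% of all genes, and with it 0, beside 0.14%. DESeq2 called 0 with and without the mouse. Hmgcs1 alone had an unadjusted p under 0.05 in the edgeR test without the mouse, which is 3.57% of the members, beside 6.64% of all genes. Hmgcs1 was lower by 0.21 with the mouse in the model (log2 fold change -0.21, SE 0.04, adjusted p = 0.0303), a 0.863-fold change that did not meet the fold threshold. It read 211 to 293 CPM in the GKRP samples and 183 to 239 CPM in the combinations, which overlapped, and the mean difference was negative in 3 of 3 mice. Insig1 was at -0.22 (SE 0.05, adjusted p = 0.0582), also negative in 3 of 3 mice. The intervals of 27 members lay between 0.7-fold and 1.3-fold in that model, beside 71.4% of all genes, and Mvk, the mevalonate kinase, was the exception.

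The 446L vectors, with leucine in place of proline, were compared with the 446P vectors over the 4 pairs of vectors. EdgeR called 0 of 28 members without the mouse, beside 0.00821% of all genes, and 0 with it, beside 0.485%, and DESeq2 called 0 with and without the mouse. No member (0 of 28) had an unadjusted p under 0.05 in the edgeR test without the mouse, beside 2.93% of all genes. Sqle, the squalene epoxidase, had the lowest adjusted p with the mouse in the model, with a log2 fold change of 0.16 (SE 0.04, adjusted p = 0.071). It read 117, 240 and 187 CPM in hL against 102, 204 and 143 in hP (mice 1, 2 and 3), and 115, 246 and 181 CPM in GK+hL against 107, 204 and 156 in GK+hP. With the mouse vectors it read 110, 229 and 150 CPM in mL against 119, 189 and 162 in mP, and 125, 238 and 158 CPM in GK+mL against 110, 217 and 144 in GK+mP. The 446L vector was thus the higher in every mouse in 3 of the 4 pairs, and in mouse 2 alone for mL against mP. Without the mouse 8 members were higher and 20 lower with 446L. The median log2 fold change was -0.037 over the members and 0.001 over all genes. The members moved the same way in 3 of 3 mice in 13 of 28 cases (46.4%), beside 30.8% of all genes, a share that counts both directions. Of the 13 members, 10 were lower with 446L. With the mouse in the model the 95% intervals of all 28 members lay between 0.7-fold and 1.3-fold for this comparison, beside 73.8% of all genes. For Insig1 the log2 fold change of 446L from 446P was -0.08 (95% interval -0.19 to 0.03), and the 4 pairs singly gave 0.1 (hL against hP) and -0.11 (mL against mP) at endogenous GK and -0.11 and -0.2 with GK, all with an SE of 0.1.

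Whether the GKRP difference depended on GK was tested as an interaction. EdgeR called 0 of 28 members and 0% of all genes (0 of 12177), without the mouse and with it, and DESeq2 called 0 of 28 in both models. In the edgeR test without the mouse 0 members had an unadjusted p under 0.05, beside 1.46% of all genes. For Insig1 the interaction was 0.04 log2 units with the mouse in the model (SE 0.11, 95% interval -0.2 to 0.28). The member furthest from 0 was Stard4 at -0.38 (SE 0.12, adjusted p = 1). It read 20.4, 39.9 and 37.2 CPM in untreated cells, 20.8, 53 and 45 in GK, 23.2 to 54 with GKRP vectors and 19.7 to 51.4 with both.

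Srebf1, Srebf2, Scap, Insig2 and the protease genes were not called in any of the 7 comparisons by edgeR or DESeq2 in either model. Srebf1, the gene of SREBP1, read 50.6, 63.9 and 48.4 CPM in untreated cells and 64.5, 60.1 and 63.7 CPM in GK. In the 12 samples with GKRP alone it read 48.5 to 91.3 CPM, and in the 12 with both 55.8 to 104 CPM, so the groups overlapped. In mouse 2, hP, mP and mL were below untreated cells. Srebf2, the gene of SREBP2, read 49.9 to 101 CPM over all 30 samples, with a centred mean between -0.22 in mL and 0.13 in GK+hP. Scap, the escort protein, followed it, with -0.21 in mL and 0.14 in GK+hP, and the correlation of their centred levels was 0.81 over 30 samples. Mbtps2, the second Golgi protease of the pathway, read 15.5 to 30.2 CPM.
Insig2 did not share the pattern of Insig1. Its log2 fold change was 0.05 (SE 0.07) for GK against the endogenous groups, -0.1 (SE 0.07) for GKRP against untreated and -0.09 (SE 0.07) for GKRP with GK against GK, with the mouse in the model. Transcript shares were read only as a description, since 238 to 852 reads per sample stood behind Srebf1. Of the Srebf1 reads, 54.3% were assigned to Srebf1-201, which starts at the upstream site (chr11:60089915-60111468, minus strand), and 23.4% to Srebf1-207, which starts downstream of it (chr11:60091289-60101291, minus strand). Transcripts from the upstream and downstream starts of this gene are known to encode SREBP1a and SREBP1c. The share of Srebf1-207 ran from 0 to 39.7% between samples, which is too variable to compare conditions. Insig2-201 (chr1:121232031-121255794, minus strand) held 57.3% of the Insig2 reads and Insig2-202, from a start further upstream (chr1:121232031-121260400, minus strand), 11.2%, with a range of 0 to 28.3%.

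Sc5d was the member whose centred level was most like that of Insig1 over the 30 samples, with a Pearson correlation of 0.84 and a Spearman correlation of 0.79, and it ranked 4th of 12177 genes by that measure, with Insig1 itself as the first. Insig1 lies at chr5:28276315-28283668 on the plus strand and Sc5d at chr9:42162891-42175605 on the minus strand (GRCm39), and no exon of either overlaps another annotated gene.

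**Figure D5:**
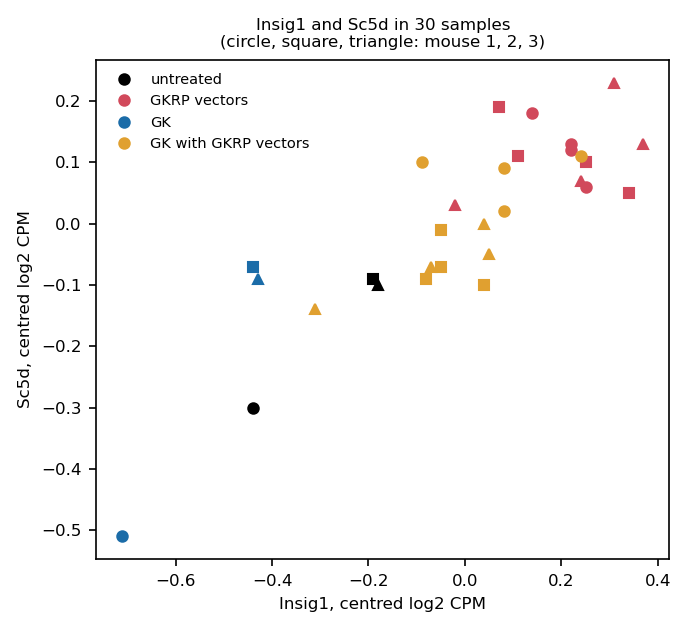
Centred log2 CPM of Sc5d against Insig1 in 30 samples, coloured by untreated, GKRP vectors, GK, and GK with GKRP vectors, with circles, squares and triangles for mice 1, 2 and 3. The GK sample of mouse 1 lies furthest to the lower left at -0.71 and -0.51, and the samples with GKRP vectors at endogenous GK fill the upper right.

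Without the GK samples of mice 1 and 2, which lay farthest from the median of Insig1, the Pearson correlation was 0.8 over 28 samples. Within mouse 1 it was 0.94, within mouse 2 0.59 and within mouse 3 0.88. Both genes showed the E-box in the promoters printed above, and so did the windows of Dhcr7, Hsd17b7 and Scap, whose correlations with Insig1 were 0.44, -0.34 and -0.05. Cyp51 ranked 275th and Msmo1 488th in likeness to Insig1, with correlations of 0.63 and 0.55. Cyp51, Msmo1 and Sc5d also correlated with each other at 0.63 to 0.69. Por went the other way, at -0.68 with Cyp51 and -0.65 with Sc5d.

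Of 16 further regulators of SREBP and of sterol synthesis, edgeR without the mouse called 0 in each of the 7 comparisons, and of 13 genes of sterol transport and esterification also 0. With the mouse in the model Ppargc1b rose with GKRP at endogenous GK and Osbpl2 with GKRP in the presence of GK, beside 4.16% and 4.34% of all genes called. No other gene of these lists was called in the 7 comparisons. Of 13 genes of the isoprenoid branches and of early acetyl-CoA supply, 2 rose in GK against the endogenous groups without the mouse, beside 0.427% of all genes called, while the median of the list was 0.067. They were Acly, which makes cytosolic acetyl-CoA from citrate (log2 fold change 1.18, SE 0.18, adjusted p = 0.000361), and Aacs, which makes acetoacetyl-CoA from acetoacetate for lipid synthesis (1.17, SE 0.15, adjusted p = 2.96e-05). Both fell with GKRP in the presence of GK, with log2 fold changes of -0.96 and -0.85, while the median of the list was -0.009. Against untreated cells alone 0 of the 13 were called in GK without the mouse, and Acly (0.93) and Aacs (0.99) were with it, beside 0.361% of all genes. The mouse in the model also added Acat1, raised by 0.38 with GKRP in the presence of GK (edgeR adjusted p = 0.0109), beside 4.34% of all genes called.
Of the 12 tested fatty acid genes of the SREBP1 list, Acaca, Mid1ip1 and Fasn rose in GK against the endogenous groups (log2 fold changes 1.15, 1.17 and 0.85), and Acaca and Elovl6 fell with GKRP in the presence of GK (-0.92 and -0.84), by edgeR without the mouse, beside 0.427% and 1.61% of all genes called. With the mouse in the model 6 rose in GK, with Elovl6, Scd1 and Me1 added (0.8, 0.43 and 0.41). In that model 4 fell with GKRP in the presence of GK, with Mid1ip1 and Fasn added (-0.72 and -0.61). Calls over all genes were also more frequent with the mouse, at 1.99% and 4.34%. Against untreated cells alone 0 of the 12 were called in GK without the mouse (median 0.289). With it 3 were called, Mid1ip1, Acaca and Elovl6, beside 0.361% of all genes. Many of these genes are also known as targets of the glucose-responsive factor ChREBP. The median log2 fold change of the 12 was 0.362 in GK against the endogenous groups, beside 0.014 over the 28 sterol and SREBP members. Exons of 17 of the 28 members overlap those of another gene, in 3 cases on the same strand, and Acat2 has the near-identical paralog Acat3, so their counts may include reads of a neighbour. Insig1, Sc5d and Msmo1 are not among these 17.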

How the data were processed

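Primary hepatocytes of 3 mice were profiled by RNA-seq in 36 cultures. The authors quantified the reads with Salmon 1.4.0 against Gencode M26 transcripts (GRCm39) without trimming and deposited, per transcript, estimated counts, TPM values and effective lengths. They ran DESeq2 on these data.

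Deposited expected counts were summed by gene and rounded. Of 139225 transcripts, 137570 (98.8%) matched a gene, and 0.392 to 0.639% of reads were left out. The 2 cultures of a mouse in untreated cells and GK were summed, giving 30 samples. Counts were tested with edgeR 4.0.16 in R 4.3.3 (TMM, filterByExpr, quasi-likelihood test over all 10 conditions, Benjamini-Hochberg over 12177 genes). The comparison of GK with the endogenous groups was the exception, since untreated, hP, hL, mP and mL were fitted there as a merged group. Differences among these groups therefore counted as residual spread in that comparison. A gene was called at an adjusted p below 0.05 with a fold of at least 1.3 or at most 0.7. The design without the mouse was the main one. Deposited TPM values served to compare levels between genes and, as an alternative to CPM, centred levels between conditions. Log2 CPM used a prior count of 2 and was centred within each mouse.

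Same-numbered samples came from the same mouse. After subtraction of the condition mean, samples of the same mouse had a mean correlation of 0.223 (0.292, 0.262 and 0.114 in mice 1, 2 and 3). Samples of different mice had one of -0.11, which adds no separate evidence, since the deviations within a condition cancel out by construction. The biological coefficient of variation was 0.323 without and 0.231 with the mouse. The mouse was therefore also fitted as a block, and its values stand beside the results that it changed. DESeq2 1.42.0, RLE scaling, a transcript length offset, no filter, each culture as a sample, and leaving out each mouse were further alternatives. Without the mouse in the model, the p-values rest on the spread between samples of a group, which come from 3 animals. With it, differences between the means of the animals are taken out, and the p-values rest on the spread left within animals. The alternative with each culture as a sample treats cultures of the same mouse and condition as separate samples.

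All 28 members were named, and of the other lists the genes called in a comparison, at most 8 per list in order of p. The members were picked by gene name, but they and the other lists were chosen with earlier results of these data known.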

Additional observations from a re-analysis of the deposited data

How the results depend on the processing

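The count of called members was 0 in each of the 7 comparisons without the mouse in the model. Of 105 such counts under the alternatives, 91 stayed at 0 and 14 moved to 1, each time Insig1. The settings that moved it were the replicate block of the mouse and DESeq2 with that block (1 in GK against the endogenous groups, in GKRP against untreated and in GKRP with GK against GK), the block without mouse 1 (1 in the same 3), the block without mouse 2 and without mouse 3 (1 in the GKRP comparisons, 0 for GK), and each culture as a sample (1 for GK against the endogenous groups, log2 fold change -0.59, adjusted p = 0.0485). Leaving out each mouse without the block gave 0 to 0 called members. The block without a mouse was chosen after seeing the data. The replicate block changed no other call of a member. The log2 fold change of Insig1 kept its direction in all 45 values under the alternatives on counts, with ranges of -0.69 to -0.51 for GK against the endogenous groups (adjusted p 1.35e-05 to 1), 0.39 to 0.52 for GKRP against untreated (1e-06 to 1) and 0.33 to 0.58 for GKRP with GK against GK (5.94e-08 to 1). The alternative with adjusted p alone and no fold threshold reuses the main fit, so its value in each comparison could not differ. Without the GK culture of mouse 3 with high Gckr the values were -0.64, 0.46 and 0.5. A prior count of 0.5 changed the sign of 0 of 280 centred means, whereas gene TPM in place of CPM changed 109. For Insig1 the TPM means turned the direction of GK+mP (-0.24) and GK+mL (-0.61) against GK (-0.2), and of GK against untreated cells (-0.45). The cause was not tested. Genes such as Mvd and Ggps1 rest on few reads, and where an interval passes 0.7-fold or 1.3-fold a change of that size remains possible.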
